A study of Bos taurus with 9 samples.

Results

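DRAM1 and 9 other genes of autophagy and the lysosome were followed in RNA from bovine endometrial cells (BEND). The members were the rows of the deposited expression table that carry the symbols DRAM1, DRAM2, SQSTM1, MAP1LC3B, GABARAP, BECN1, ATG5, TFEB, LAMP1 and LAMP2. All 10 were found among the 17162 genes of the table, and all 10 passed the filter on low values that left 12578 genes for testing. The study sequenced 9 libraries of primary cells from the lining of the cow uterus. It set out to follow gene expression under combined treatment with interferon tau (IFNT) and ovarian hormones. IFNT is the type I interferon by which the ruminant conceptus signals its presence. CON was 3 libraries of cells without hormone or IFNT. GA was 3 libraries of cells given estradiol (E2, 1 nM) and progesterone (P4, 100 nM). GB was 3 libraries of cells given the same hormones and IFNT (100 ng/mL). The labels give 1 treatment time, 12 h, on every sample, whereas the methods of the study put 12 h of hormones before 12 h more with IFNT. The sources do not say whether CON and GA were collected with GB, so a difference in length of culture, if there was one, and IFNT cannot be told apart in any comparison with GB. The study calls its 3 replicates per group biological, but the sources do not state whether they came from different animals. The p-values therefore measure the spread between these libraries, which may be technical.

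In autophagy, a membrane grows around cargo, closes into an autophagosome and fuses with a lysosome, whose enzymes digest what was enclosed. Proteins of the ATG8 family such as MAP1LC3B and GABARAP are attached to the growing membrane, receptors such as SQSTM1 tether cargo to them, and acid-dependent hydrolases inside a LAMP1- and LAMP2-coated lysosome complete the process. DRAM1, the damage-regulated autophagy modulator, is a lysosomal membrane protein that promotes autophagy. RNA levels alone were measured in these libraries, and neither the proteins nor the passage of cargo was.

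Values are FPKM, which divides a gene's fragments by its exon length and by the mapped total, so levels of different genes can be set side by side per length. A difference is given as log2FC on the scale of log2(FPKM + 0.5), with its standard error and the Benjamini-Hochberg adjusted p of a limma fit to all 12578 genes. A gene is said to have risen or fallen when the adjusted p was under 0.05, and a differentially expressed gene (DEG) also had a log2FC beyond 1 in either direction.

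The labelled cell type was checked first. The labels name epithelial cells, but 7 of the 8 epithelial markers listed are in the table and their summed level was only 0.54 to 2.23 FPKM over the 9 libraries. The keratins KRT8, KRT18, KRT19 and KRT7 and the adhesion protein CDH1 stayed at or below 0.67 FPKM in each library, KRT7 was listed at 0 in 6 libraries, and EPCAM was not analysed here. The 8 stromal fibroblast markers summed to 14753 to 16862 FPKM. VIM, an intermediate filament protein of mesenchymal cells, was their most abundant gene at 7773 to 9570 FPKM, and COL1A1 lay between 2230 and 2544 FPKM. The RNA therefore goes against the epithelial label, although the study stained its primary cells for cytokeratin 18 and describes them as positive, and the cells are called BEND or endometrial cells here. Immune cell markers summed to 21.2 to 27.8 FPKM, mostly CD14 at 16.7 to 23.3 FPKM, and the 4 endothelial markers to 1.33 to 3.34 FPKM. In the GB libraries the stromal sum was 14753 to 14852 FPKM, below the 16278 to 16862 FPKM of the other 6. VIM, COL1A1, COL1A2 and COL3A1 were below all other libraries in GB. PDGFRA in GB was above all other libraries, at 192 to 201 FPKM against 144 to 163 FPKM, and DCN and LUM were above CON and below GA. The part of these differences in the results below was not tested. In bulk RNA fewer cells of a type and less RNA per cell cannot be told apart.

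**Figure D1:**
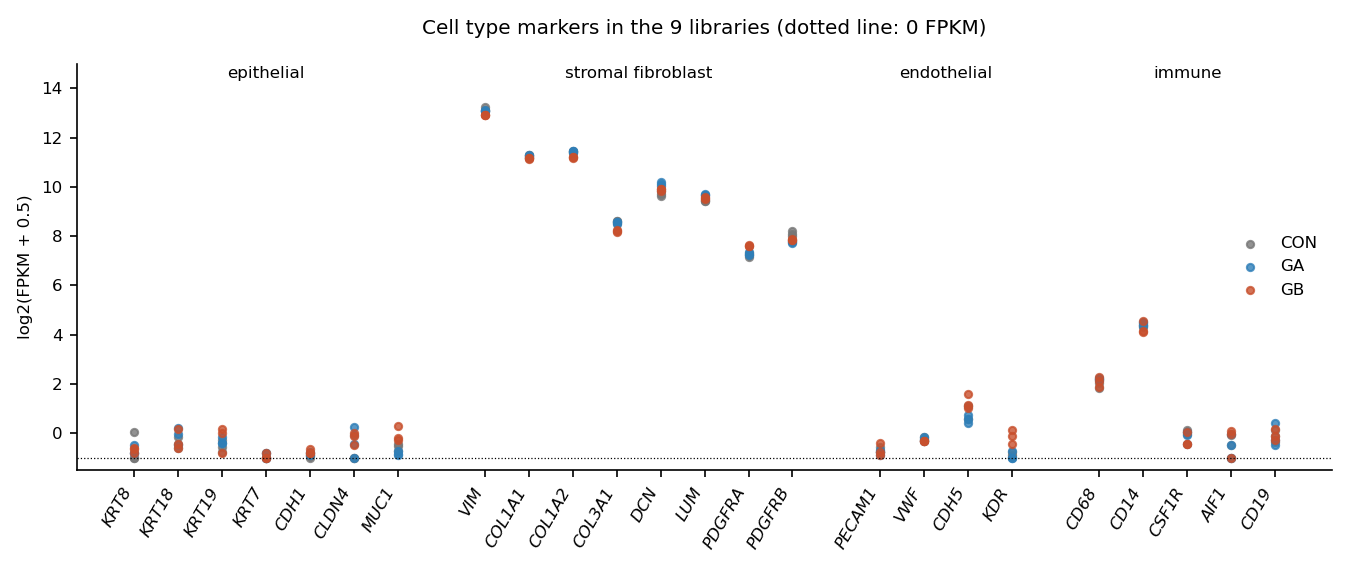
Level of each cell type marker as log2(FPKM + 0.5) on the vertical axis, with 1 point per library coloured by group; the dotted line is 0 FPKM. The epithelial markers lie at the bottom of the axis in each of the 3 groups, while the 8 stromal fibroblast markers lie between 144 and 9570 FPKM.

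As a check of the treatment, ISG15, a ubiquitin-like protein induced by interferon, was at 1.76 to 7.01 FPKM in the 6 CON and GA libraries and at 5536 to 5616 FPKM in GB. MX2, an antiviral GTPase, was at 0.05 to 0.14 FPKM in CON and GA and at 753 to 762 FPKM in GB. Both separated GB from the rest without overlap (ISG15 log2FC 10.29 ± 0.46 in GB vs. CON and 10.34 ± 0.46 for GB vs. GA, MX2 10.39 ± 0.08 and 10.29 ± 0.08; limma adjusted p 2.2e-07, 2.1e-07, 3.0e-12 and 3.3e-12; SE, n = 3 per group). Below 0.5 FPKM the size of the MX2 rise depends on the pseudocount, and its log2FC ran from 9.48 to 12.19 in GB vs. CON and from 9.42 to 11.85 for GB vs. GA over the alternatives. MX2 passed the filter on low values only through GB, so its test is partly fixed by that filter.

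Of the 10 members, 0 passed in GA vs. CON, 7 passed in GB vs. CON (5 higher, 2 lower) and 7 passed in GB vs. GA (4 higher, 3 lower). Among all genes tested by limma, 0.246% were higher and 0.207% lower in GA vs. CON. In GB vs. CON these shares were 16.2% and 17.3%, and in GB vs. GA they were 9.87% and 19.2%. With median-of-ratios scaling the split in GB vs. GA was 5 higher and 2 lower, since BECN1 then passed and LAMP1 did not, beside 14.3% higher and 12.7% lower of all genes. With rescaling to the same sum (TPM) BECN1 passed as well (adjusted p 0.035), and the split was 5 higher and 3 lower. In GB vs. CON with the GC content of the reads in the fit, 3 were higher and 2 lower, beside 4.48% and 7.23% of all genes. At an unadjusted p under 0.05, 3 members differed in GA vs. CON, namely DRAM2, GABARAP and SQSTM1, beside 19.3% of all genes. DRAM1 and DRAM2 were DEGs in both comparisons with GB, and no other member was. The comparisons with GB share its 3 libraries and are not independent of each other, and DRAM1 was picked by the study as a DEG from these libraries, so its test adds no independent evidence.

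**Figure D2:**
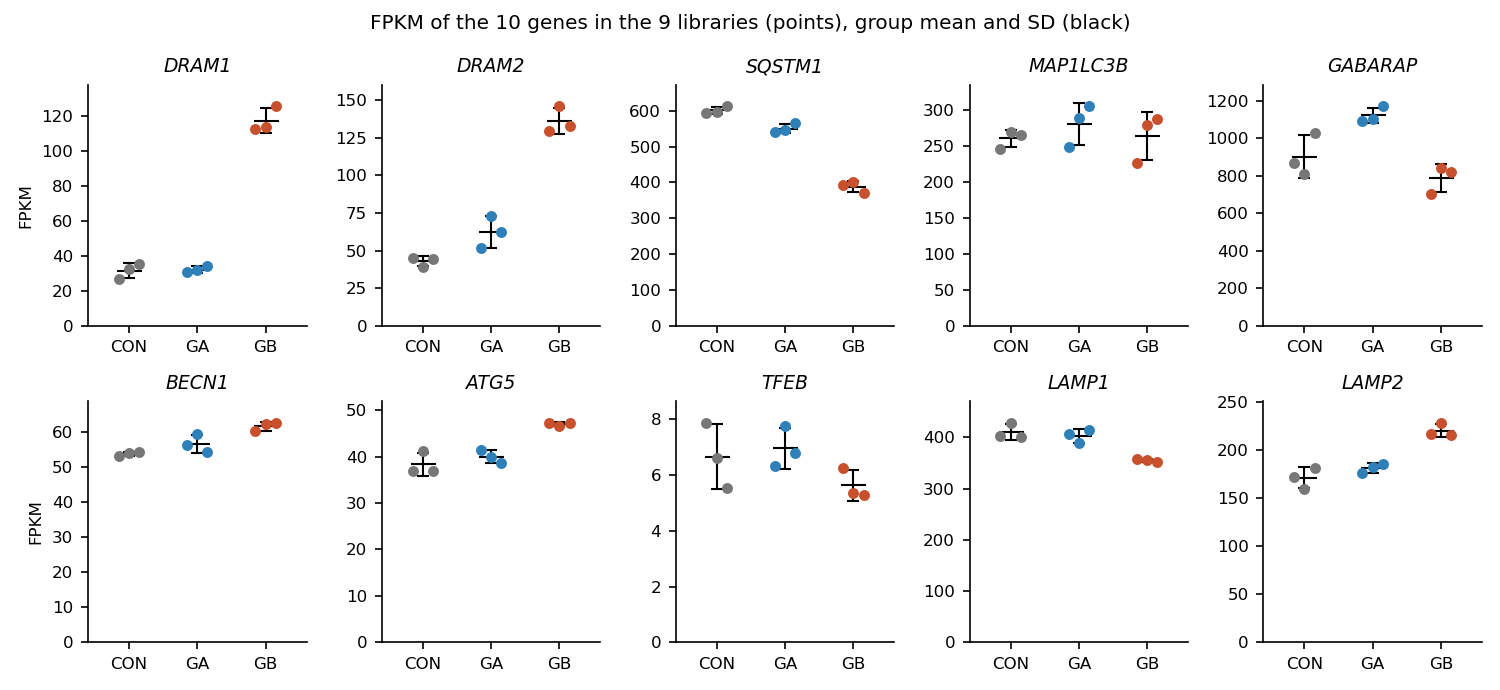
FPKM of the 10 members on the vertical axis, from 0, in CON, GA and GB. Points are single libraries and the black bars are the group mean and SD (n = 3). DRAM1 and DRAM2 in GB sit at 113 to 146 FPKM, far above the other groups, whereas MAP1LC3B overlaps in all 3 groups.

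DRAM1, the lysosomal membrane protein named above, was at 26.9, 32.4 and 35.6 FPKM in CON, at 30.9, 31.7 and 34.3 FPKM in GA and at 113, 114 and 126 FPKM in GB. The CON and GA libraries overlapped fully and each GB library was more than 3 times as high as any of them. Mean FPKM was 31.6 ± 4.39 in CON, 32.3 ± 1.74 in GA and 118 ± 7.06 in GB (SD, n = 3), 3.72-fold higher in GB than in CON and 3.64-fold higher than in GA. DRAM1 rose with a log2FC of 1.89 ± 0.10 in GB vs. CON and of 1.85 ± 0.10 in GB vs. GA (limma, adjusted p 5.8e-07 and 6.9e-07). In GA vs. CON its log2FC was 0.04 ± 0.10 with a 95% interval of -0.18 to 0.26 (limma, adjusted p 0.85).

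DRAM2, its closest relative, which also lies on lysosomes and promotes autophagy, was at 45.0, 39.0 and 44.6 FPKM in CON, at 51.5, 73.0 and 62.5 FPKM in GA and at 129, 146 and 133 FPKM in GB. The 3 groups did not overlap, with GA between CON and GB. DRAM2 rose in GB vs. CON (log2FC 1.66 ± 0.12, 3.17-fold, limma adjusted p 6.2e-06) and in GB vs. GA (1.13 ± 0.12, 2.18-fold, adjusted p 1.0e-04). In GA vs. CON its log2FC was 0.52 ± 0.12, which did not pass after adjustment (limma, p 0.0014, adjusted p 0.084). That log2FC ran from 0.031 to 0.65 over all alternatives and from 0.40 to 0.65 with single libraries left out.

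DRAM2 exceeded DRAM1 in each library. The ratio of DRAM1 to DRAM2 was 0.60, 0.83 and 0.80 in CON, 0.60, 0.43 and 0.55 in GA and 0.87, 0.78 and 0.94 in GB. GA and GB did not overlap in this ratio, CON overlapped both, and no test was made of it. The 3 further genes of the DRAM family were low. TMEM150A lay at 2.26 to 5.14 FPKM in CON and GA and at 1.38 to 2.38 FPKM in GB, with a log2FC of -0.86 ± 0.30 in GB vs. GA that did not pass (limma, adjusted p 0.055) except without CON replicate 3 or GA replicate 1 (adjusted p 0.047 and 0.012). TMEM150C lay at 2.74 to 6.18 FPKM in all 9 libraries, and TMEM150B, at 0.12 to 0.50 FPKM, was too low to be tested.

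**Figure D3:**
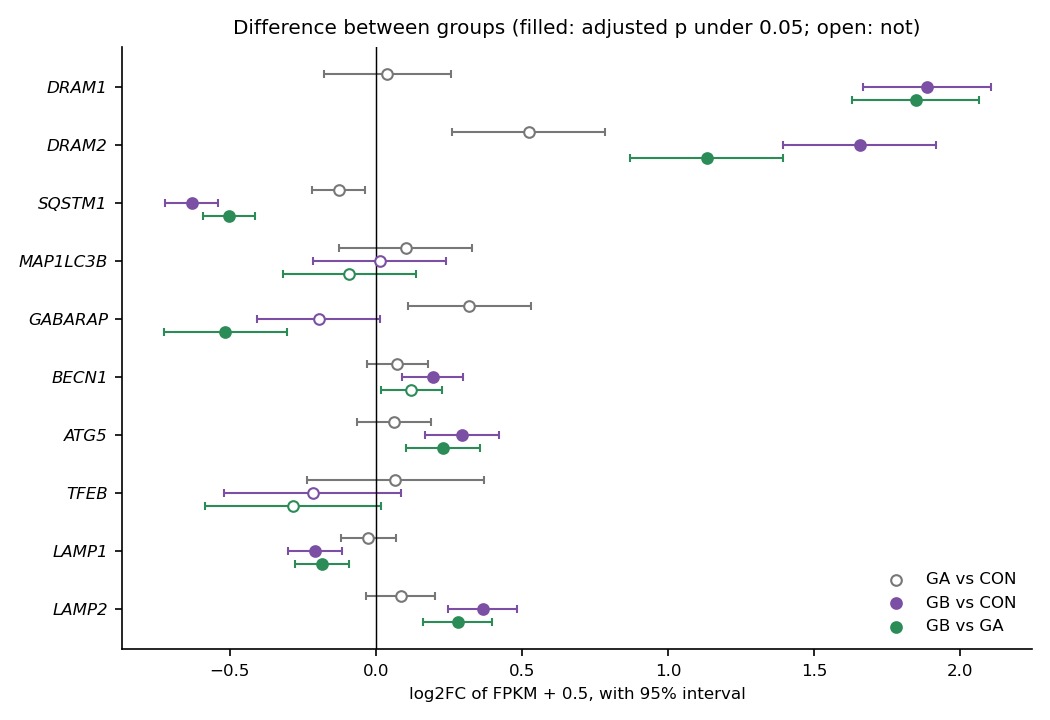
log2FC of the 10 members on the horizontal axis in GA vs. CON, GB vs. CON and GB vs. GA, with 95% intervals from limma; filled symbols have an adjusted p under 0.05. DRAM1 and DRAM2 stand beyond 1 in both comparisons with GB, SQSTM1 is at -0.63 and -0.50, and all symbols of GA vs. CON are open.

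BECN1, a subunit of the lipid kinase complex that starts the membrane, was at 53.2, 53.8 and 54.3 FPKM in CON, at 56.1, 59.4 and 54.3 FPKM in GA and at 60.1, 62.2 and 62.5 FPKM in GB. GB lay above the other 6 libraries by a narrow margin. BECN1 rose 1.15-fold in GB vs. CON (log2FC 0.19 ± 0.05, limma adjusted p 0.011) but not in GB vs. GA (0.12 ± 0.05, adjusted p 0.081), and the rise was not called with quantile normalization (log2FC 0.14, adjusted p 0.068) or with the GC content of the reads in the fit (log2FC 0.21, adjusted p 0.18). ATG5, part of the enzyme that attaches ATG8 proteins to lipid, was at 36.9, 41.2 and 36.8 FPKM in CON, at 41.4, 40.0 and 38.6 FPKM in GA and at 47.2, 46.6 and 47.1 FPKM in GB. The GB libraries were again above all others, and ATG5 rose 1.23-fold in GB vs. CON (log2FC 0.29 ± 0.06, limma adjusted p 0.0036) and 1.18-fold in GB vs. GA (0.23 ± 0.06, adjusted p 0.014). Without GA replicate 3 the ATG5 rise in GB vs. GA was not called (limma, adjusted p 0.052).

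Of the 6 ATG8 family genes tested, 1 rose and 1 fell in each comparison with GB. This is 16.7% each way, beside 16.2% and 17.3% of all genes in GB vs. CON and 9.87% and 19.2% in GB vs. GA. MAP1LC3B, the ATG8 protein most used as an autophagosome marker, was at 247, 270 and 266 FPKM in CON, at 249, 289 and 305 FPKM in GA and at 226, 279 and 288 FPKM in GB. All 3 groups overlapped. Set against GA, its log2FC in GB was -0.09 with a 95% interval of -0.32 to 0.14 (limma, adjusted p 0.54). GABARAP was at 866, 812 and 1028 FPKM in CON, at 1094, 1100 and 1169 FPKM in GA and at 701, 841 and 818 FPKM in GB. GA lay above every library of both other groups, and CON and GB overlapped. GABARAP fell in GB vs. GA (log2FC -0.52 ± 0.09, limma adjusted p 0.0032), with a log2FC of -0.19 ± 0.09 in GB vs. CON (adjusted p 0.14) and 0.32 ± 0.09 in GA vs. CON (adjusted p 0.13). With the GC content of the reads in the fit, GABARAP passed in GB vs. CON as well (-0.54, adjusted p 0.033). The GABARAP row is uncertain, because its protein description in the deposited table is that of CTD nuclear envelope phosphatase 1. The gene for that phosphatase, CTDNEP1, is listed close to GABARAP on chromosome 19 in RefSeq (assembly ARS-UCD2.0) and has a row of its own at 90.4 to 109 FPKM. GABARAPL1, a near relative of GABARAP picked out after its values were seen, was at 199 to 283 FPKM in CON, 215 to 253 FPKM in GA and 306 to 353 FPKM in GB. GB lay above the rest, and GABARAPL1 rose in both comparisons (log2FC 0.48 ± 0.12 and 0.47 ± 0.12, limma adjusted p 0.013 and 0.017), the opposite sign to GABARAP. The GABARAPL1 call in GB vs. GA was lost without GA replicate 1 or GB replicate 2 (adjusted p 0.062 and 0.060), and that in GB vs. CON with the GC covariate (log2FC 0.086, adjusted p 0.81). MAP1LC3A, also picked out afterwards, fell in GB vs. CON alone (log2FC -0.32 ± 0.07, limma adjusted p 0.0068; adjusted p 0.082 in GB vs. GA). MAP1LC3C had the largest log2FC of the family in GB vs. GA, 1.35 ± 0.62, but lay between 0 and 3.47 FPKM and did not pass (limma, adjusted p 0.14).

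SQSTM1 (p62), the receptor that binds ubiquitin-tagged cargo and is itself degraded by autophagy, was the member with the largest fall in GB vs. CON. It was at 593, 596 and 612 FPKM in CON, at 540, 545 and 565 FPKM in GA and at 393, 401 and 371 FPKM in GB. The 3 groups did not overlap, and GB was the lowest. SQSTM1 fell to 0.646 times the CON level (log2FC -0.63 ± 0.04, limma adjusted p 3.2e-06) and to 0.706 times the GA level (-0.50 ± 0.04, adjusted p 1.7e-05). In GA vs. CON its log2FC was -0.13 ± 0.04 (adjusted p 0.15).

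TFEB, the transcription factor known for driving lysosomal genes, was the least abundant member. It was at 7.86, 6.59 and 5.52 FPKM in CON, at 6.33, 7.76 and 6.77 FPKM in GA and at 6.24, 5.34 and 5.28 FPKM in GB. CON overlapped both other groups, and TFEB passed in none of the 3 comparisons, with 95% intervals of -0.24 to 0.37 for GA vs. CON, -0.52 to 0.09 for GB vs. CON and -0.59 to 0.02 for GB vs. GA (limma log2FC).

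The lysosomal coat proteins LAMP1 and LAMP2 moved in opposite directions. LAMP1 was at 403, 428 and 401 FPKM in CON, at 407, 388 and 414 FPKM in GA and at 358, 356 and 351 FPKM in GB. Each GB library was below each of the others. LAMP1 fell to 0.865 times the CON level and 0.880 times the GA level (log2FC -0.21 ± 0.04 and -0.18 ± 0.04, limma adjusted p 0.0042 and 0.0093), and the fall in GB vs. GA was lost with median-of-ratios scaling (adjusted p 0.12). LAMP2, also the receptor for chaperone-mediated autophagy in its A form, was at 172, 160 and 182 FPKM in CON, at 176, 183 and 186 FPKM in GA and at 217, 229 and 216 FPKM in GB. GB was above all other libraries, and LAMP2 rose 1.29-fold over CON and 1.21-fold over GA (log2FC 0.37 ± 0.05 and 0.28 ± 0.05, limma adjusted p 7.5e-04 and 0.0038). With the GC content of the reads as a covariate, the calls of both genes in GB vs. CON were lost (LAMP1 log2FC -0.14, adjusted p 0.27, and LAMP2 log2FC 0.21, adjusted p 0.14).

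Ordered by mean level, CON ran GABARAP, SQSTM1, LAMP1, MAP1LC3B, LAMP2, BECN1, DRAM2, ATG5, DRAM1 and TFEB, from 902 down to 6.66 FPKM. Of these neighbours only DRAM2 and ATG5 overlapped in their libraries. In GA, DRAM2 stood just above BECN1 and the ranges of this pair overlapped. In GB, DRAM2 and DRAM1 stood above BECN1 and ATG5 in each library, and the top 5 kept the order of CON, with MAP1LC3B and LAMP2 overlapping.

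The other genes of the pathway were read from 12 lists ordered by step, with 169 genes, of which 166 are in the table and 156 were tested (LAMP3, ATP6V0D2 and ATP6V1G3 were not analysed here). The lists include the 10 members. In GA vs. CON, 0 of the 156 passed, and 0 were DEGs against 0.0716% of all genes. In GB vs. CON 21 were higher and 37 lower, and in GB vs. GA 16 were higher and 44 lower (limma, adjusted p under 0.05). The shares of 13.5% higher and 23.7% lower, and of 10.3% and 28.2%, stand beside 16.2%, 17.3%, 9.87% and 19.2% of all genes. The median log2FC of the 156 was -0.06 in GB vs. CON and -0.12 for GB vs. GA, beside -0.02 and -0.08 for all genes. With the GC content of the reads as a covariate, 8 were higher and 11 lower in GB vs. CON, beside 4.48% and 7.23% of all genes. With median-of-ratios scaling the split in GB vs. GA was 21 higher and 30 lower (13.5% and 19.2%). The split of all genes turned there, to 14.3% higher and 12.7% lower, and that of the lists did not. Of the 156 genes, 5 were higher DEGs when GB was set against CON and 4 when it was set against GA, with 0 lower. Among all genes, 2.94% and 2.66% were higher DEGs and 1.07% and 0.978% lower ones, in the same order. Whether the lists differ from all genes in their share of DEGs was not tested. Beside DRAM1 and DRAM2 the DEGs of the lists were CALCOCO2, SLC15A3 and, in GB vs. CON alone, FUNDC1. SLC15A3 passed the filter on low values only through GB, so its place in these counts is partly fixed by that filter.

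**Figure D4:**
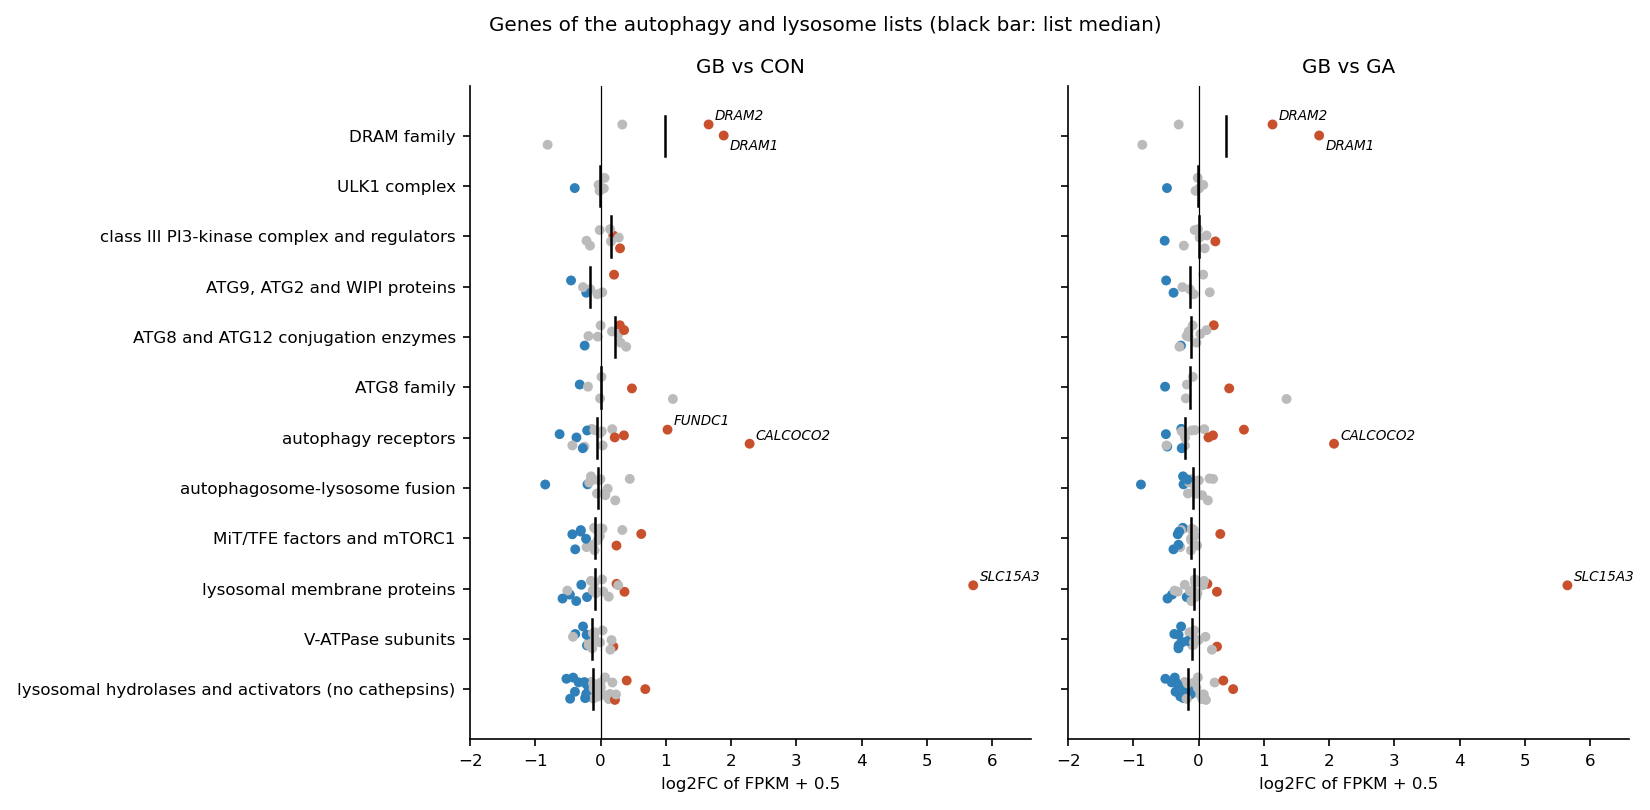
log2FC of each tested gene of the autophagy and lysosome lists in GB vs. CON (left) and GB vs. GA (right). Red and blue points rose or fell with an adjusted p under 0.05, grey points did not pass, black bars are list medians and DEGs are named. Most points lie close to 0, and CALCOCO2 (2.28 and 2.07) and SLC15A3 (5.71 and 5.65) stand furthest to the right.

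CALCOCO2 (NDP52), a cargo receptor known for delivering bacteria and damaged mitochondria to autophagosomes, was at 17.0, 17.8 and 16.2 FPKM in CON, at 21.3, 19.8 and 18.2 FPKM in GA and at 83.1, 86.5 and 84.4 FPKM in GB. GB stood far apart, 4.98-fold above CON and 4.29-fold above GA (log2FC 2.28 ± 0.07 and 2.07 ± 0.07, limma adjusted p 7.3e-09 and 1.5e-08). FUNDC1, a mitochondrial outer membrane receptor for mitophagy, was at 87.8, 72.5 and 98.3 FPKM in CON, at 102, 110 and 112 FPKM in GA and at 180, 181 and 164 FPKM in GB. The groups did not overlap, with GA again in between. FUNDC1 rose 2.03-fold over CON and 1.62-fold over GA (log2FC 1.03 ± 0.10 and 0.69 ± 0.10, limma adjusted p 6.0e-05 and 8.4e-04). Its place among the DEGs of GB vs. CON was lost without CON replicate 2 or GB replicate 2, with quantile normalization and with the GC covariate, where its log2FC was under 1.

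Of the 16 autophagy receptors tested, 4 rose and 4 fell in each comparison with GB. This is 25% each way, beside 16.2% and 17.3% of all genes in GB vs. CON and 9.87% and 19.2% for GB vs. GA, and with the GC covariate 2 rose and 2 fell in GB vs. CON (12.5% each way, beside 4.48% and 7.23%). OPTN, a ubiquitin-binding receptor picked out after its values were seen, was at 76.2 to 87.5 FPKM in CON and at 98.8 to 111 FPKM in GB and rose in both (log2FC 0.36 ± 0.06 and 0.22 ± 0.06, limma adjusted p 0.0019 and 0.024), the second call being lost without GA replicate 1, 2 or 3 or GB replicate 1 or 2 (adjusted p 0.061 to 0.086). Those that fell beside SQSTM1 were TOLLIP, FKBP8 and PINK1 in GB vs. CON (log2FC -0.37 ± 0.09, -0.21 ± 0.05 and -0.27 ± 0.06, limma adjusted p 0.014, 0.0097 and 0.0096) and NBR1, BNIP3L and PINK1 in GB vs. GA (-0.27 ± 0.05, -0.48 ± 0.10 and -0.26 ± 0.06, adjusted p 0.0062, 0.0054 and 0.014). NBR1 and TOLLIP bind ubiquitin-tagged cargo, BNIP3L and FKBP8 are mitophagy receptors, and PINK1 is the kinase that marks damaged mitochondria. TOLLIP also passed in GB vs. GA with that pair fitted alone (-0.21, adjusted p 0.011) and without CON replicate 2 (adjusted p 0.0065). In GB vs. CON, NBR1 passed with quantile normalization (-0.21, adjusted p 0.0088) and without CON replicate 2 (-0.17, adjusted p 0.043), and BNIP3L with quantile normalization (-0.30, adjusted p 0.037). These 5 were named after their values were seen. With the GC covariate the falls in GB vs. CON were not called (TOLLIP log2FC -0.04, FKBP8 -0.13 and PINK1 -0.38, adjusted p 0.89, 0.38 and 0.080), and the PINK1 call in GB vs. GA was lost without GA replicate 1 or 3 (adjusted p 0.054 and 0.053).

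SLC15A3, a lysosomal transporter of histidine and small peptides, was nearly silent outside GB. It was at 0.06, 0.23 and 0.27 FPKM in CON, at 0.11, 0.37 and 0.17 FPKM in GA and at 34.1, 36.2 and 35.2 FPKM in GB. Only the GB libraries carried it past the filter on low values, so its test is partly fixed by that filter. The values below 0.5 FPKM rest on few reads, so the size of the rise is uncertain and depends on the pseudocount (log2FC 5.71 ± 0.18 and 5.65 ± 0.18, limma adjusted p 1.3e-08 and 1.4e-08, and 4.93 to 7.03 in GB vs. CON over all alternatives). Of the 18 lysosomal membrane genes tested, 3 rose and 5 fell in GB vs. CON and 3 rose and 3 fell in GB vs. GA. These are 16.7% and 27.8% of the list in GB vs. CON, beside 16.2% and 17.3% of all genes, and 16.7% each way in GB vs. GA, beside 9.87% and 19.2%. With the GC covariate 1 rose (5.56%) and 0 fell in GB vs. CON, beside 4.48% and 7.23% of all genes. NPC1, which exports cholesterol from lysosomes, had the lowest log2FC among them. It was at 24.6 to 29.0 FPKM in CON and GA and at 17.1 to 18.5 FPKM in GB and fell in both comparisons (log2FC -0.58 ± 0.07 and -0.48 ± 0.07, limma adjusted p 1.8e-04 and 7.4e-04). MCOLN1, a lysosomal calcium channel picked out afterwards, fell likewise from 58.6 to 68.4 FPKM in CON and GA to 44.8 to 48.5 FPKM in GB (log2FC -0.47 ± 0.06 and -0.41 ± 0.06, limma adjusted p 4.2e-04 and 0.0011).

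**Figure D5:**
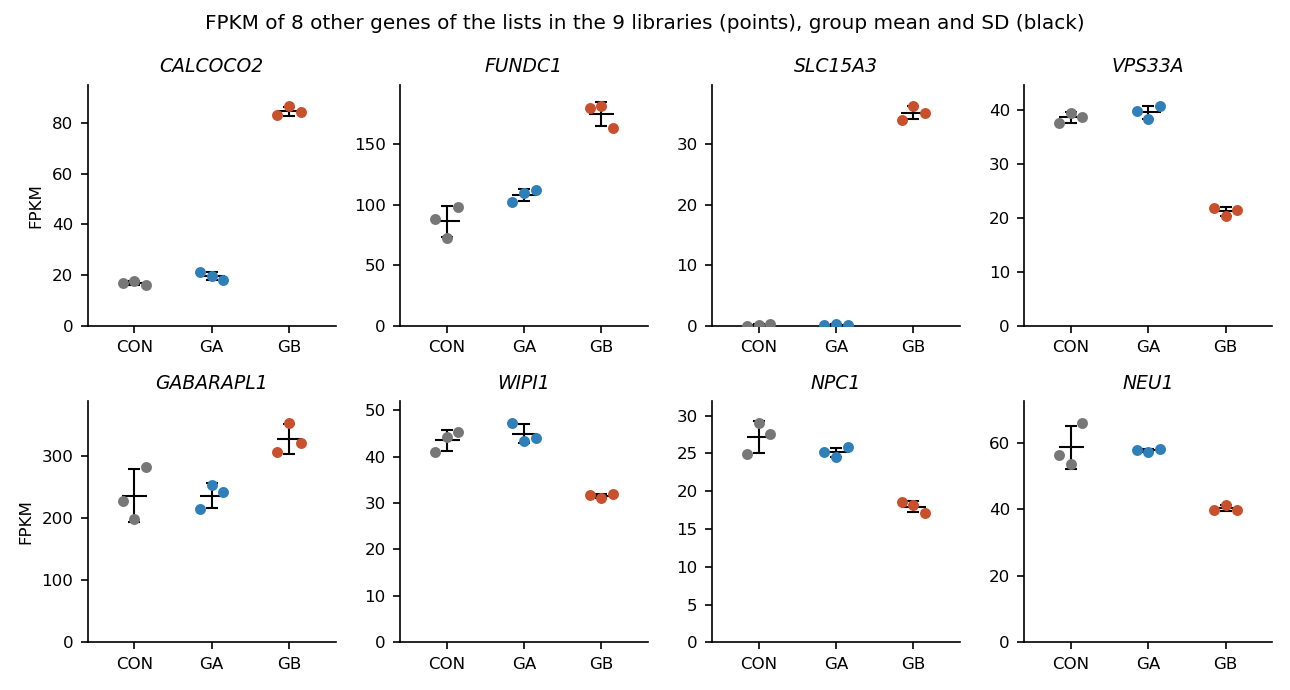
FPKM on the vertical axis, from 0, of 8 further genes of the lists in CON, GA and GB; points are libraries and black bars the mean and SD (n = 3). CALCOCO2, FUNDC1, SLC15A3 and GABARAPL1 are highest in GB, and VPS33A, WIPI1, NPC1 and NEU1 are lowest there.

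At the first steps, 1 of the 5 genes of the ULK1 kinase complex fell in each comparison and none rose, a share of 20% beside 17.3% and 19.2% of all genes. The gene was ULK2, at 10.6 to 13.1 FPKM in CON and GA and 7.83 to 9.84 FPKM in GB (log2FC -0.40 ± 0.10 and -0.49 ± 0.10, limma adjusted p 0.016 and 0.0072), the first call being lost without CON replicate 3, GB replicate 1 or GB replicate 3 (adjusted p 0.052 to 0.057). ATG101 of the same complex had a log2FC of 0.07 ± 0.10 in GB vs. GA (adjusted p 0.64). In the list of the class III PI3-kinase, 2 of 8 genes (25%, beside 16.2% of all genes) rose in GB vs. CON, BECN1 and the catalytic subunit PIK3C3 (log2FC 0.30 ± 0.08, limma adjusted p 0.017), whose call was lost without CON replicate 1, GB replicate 2 or GB replicate 3 (adjusted p 0.052 to 0.054). In GB vs. GA, AMBRA1, which recruits BECN1, rose (0.26 ± 0.06, adjusted p 0.0079) and ATG14, which directs the kinase to autophagosomes, fell (-0.52 ± 0.13, adjusted p 0.016). The ATG14 call was lost without GA replicate 2, GA replicate 3 or GB replicate 3 (adjusted p 0.053 to 0.061). WIPI1, which reads the lipid that this kinase makes, was at 41.0 to 47.2 FPKM in CON and GA and at 31.1 to 31.9 FPKM in GB. It fell in both comparisons (log2FC -0.45 ± 0.06 and -0.50 ± 0.06, limma adjusted p 2.8e-04 and 1.8e-04), whereas its relative WIPI2 passed in neither (0.02 ± 0.07 and 0.17 ± 0.07, adjusted p 0.82 and 0.092) except in GB vs. GA with median-of-ratios scaling (0.24, adjusted p 0.035). Of the 10 conjugation enzymes, ATG5 and ATG16L1, which sit in the same complex, rose in GB vs. CON (ATG16L1 log2FC 0.36 ± 0.05, limma adjusted p 3.8e-04) and 1 fell, 20% and 10% of the list beside 16.2% and 17.3% of all genes. With the GC covariate 0 of the 8 class III PI3-kinase genes and 1 of the 10 conjugation enzymes rose in GB vs. CON, beside 4.48% of all genes. ATG10 had the lowest log2FC of that list in GB vs. GA, -0.29 ± 0.18, and passed only without GB replicate 2 (adjusted p 0.26, and 0.037 without it). PIK3C3 and ATG16L1 were named after their values were seen.

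For the fusion of autophagosomes with lysosomes, 0 of 14 genes rose in either comparison, while 2 fell in GB vs. CON and 4 for GB vs. GA. Of all genes 16.2% and 9.87% rose. The falls are 14.3% and 28.6% of the list, beside 17.3% and 19.2% of all genes, and with median-of-ratios scaling 2 fell in GB vs. GA (14.3%, beside 12.7%). VPS33A, a subunit of the HOPS complex that tethers the membranes, was at 37.7, 39.6 and 38.8 FPKM in CON, at 39.8, 38.4 and 40.7 FPKM in GA and at 21.8, 20.3 and 21.6 FPKM in GB. GB lay at little more than 0.5 of the level of the others, with log2FC of -0.85 ± 0.05 and -0.88 ± 0.05 (limma, adjusted p 2.2e-06 and 1.6e-06). STX17, the SNARE of the autophagosome, had the largest log2FC of the list in GB vs. GA, 0.22 ± 0.17, and did not pass (adjusted p 0.37).

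Of the 17 genes for the MiT/TFE factors and mTORC1, the nutrient-sensing kinase that holds autophagy in check, 2 rose and 5 fell in GB vs. CON and 1 rose and 5 fell in GB vs. GA. The 5 that fell are 29.4% of the list, beside 17.3% and 19.2% of all genes. Those that rose are 11.8% and 5.88%, beside 16.2% and 9.87%. With the GC covariate 1 rose and 0 fell in GB vs. CON, where 4.48% and 7.23% of all genes did, and with median-of-ratios scaling 3 fell in GB vs. GA (17.6%, beside 12.7%). RHEB, the small GTPase that activates mTORC1, was at 172 to 216 FPKM in CON, 238 to 256 FPKM in GA and 291 to 331 FPKM in GB, without overlap. It rose in both comparisons with GB (log2FC 0.62 ± 0.09 and 0.33 ± 0.09, limma adjusted p 7.0e-04 and 0.021), the second call being lost without GA replicate 1, GA replicate 2, GB replicate 2 or GB replicate 3 (adjusted p 0.050 to 0.072). In GB vs. CON the log2FC was 0.21 with the GC covariate and the call was lost (adjusted p 0.066). LAMTOR4, part of the lysosomal anchor of mTORC1, had the lowest log2FC in GB vs. GA (-0.39 ± 0.12, adjusted p 0.034). That fall was lost in 9 of the alternatives, 5 of them leaving out a library (GA replicate 1, 2 or 3 or GB replicate 2 or 3), with adjusted p of 0.053 to 0.11. In GB vs. CON LAMTOR4 also fell (-0.39 ± 0.12, adjusted p 0.029), but not without CON replicate 2, GB replicate 2 or GB replicate 3 (adjusted p 0.051 to 0.097) or with CON and GB fitted alone (adjusted p 0.060), and with the GC covariate its log2FC was 0.15 (adjusted p 0.36).

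Of 19 V-ATPase proton pump subunits tested, 1 rose and 4 fell in GB vs. CON, and 1 rose and 8 fell in GB vs. GA. The shares that fell, 21.1% and 42.1%, stand beside 17.3% and 19.2% of all genes. The 1 that rose is 5.26% of the list, beside 16.2% and 9.87% of all genes. With median-of-ratios scaling 6 fell in GB vs. GA (31.6%, beside 12.7%). In GB vs. CON 8 fell with quantile normalization (42.1%, beside 21.6%) and 2 with the GC covariate (10.5%, beside 7.23%). ATP6V1B2 fell from 120 to 131 FPKM in CON and GA to 94.8 to 97.3 FPKM in GB (log2FC -0.39 ± 0.05 and -0.37 ± 0.05, limma adjusted p 2.3e-04 and 3.4e-04). TCIRG1 was the subunit that rose (0.20 ± 0.05 and 0.28 ± 0.05, adjusted p 0.019 and 0.0038), and its call in GB vs. CON was lost without CON replicate 1, CON replicate 3 or GB replicate 3 and with quantile normalization (adjusted p 0.086). Of 32 lysosomal hydrolases and activators other than cathepsins, 3 rose and 12 fell in GB vs. CON and 2 rose and 14 fell in GB vs. GA. Their median log2FC was -0.11 and -0.17, beside -0.02 and -0.08 for all genes. The shares that fell were 37.5% and 43.8%, beside 17.3% and 19.2% of all genes. The shares that rose were 9.38% and 6.25%, beside 16.2% and 9.87%. With median-of-ratios scaling 8 fell in GB vs. GA (25%, beside 12.7% of all genes), and with the GC covariate 3 fell in GB vs. CON (9.38%, beside 7.23%). NEU1, a sialidase, was at 53.5 to 66.0 FPKM in CON and GA and at 39.9 to 41.4 FPKM in GB (log2FC -0.52 ± 0.07 and -0.51 ± 0.07, limma adjusted p 5.5e-04 and 7.7e-04). LIPA, the lysosomal acid lipase that frees cholesterol and fatty acids from lipoproteins, went the other way, from 18.8 to 25.9 FPKM in CON and GA to 33.8 to 36.1 FPKM in GB (log2FC 0.68 ± 0.09 and 0.53 ± 0.09, adjusted p 5.2e-04 and 0.0026). With the GC covariate its log2FC in GB vs. CON was 0.38 and did not pass (adjusted p 0.12). ACP2, a lysosomal acid phosphatase picked out afterwards, also rose (0.40 ± 0.08 and 0.38 ± 0.08, adjusted p 0.0036 and 0.0056).

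The study lowered DRAM1 with siRNA and measured 4 receptivity and prostaglandin genes, and these were read in the libraries. By its account, silencing lowered PTGS1 and PTGS2 mRNA both with and without IFNT. HOXA11 mRNA was lowered only with IFNT, and HOXA10 mRNA did not change significantly. PTGS1, a prostaglandin synthase, was at 71.4, 71.9 and 76.7 FPKM in CON, at 61.9, 61.2 and 75.4 FPKM in GA and at 51.9, 48.1 and 47.7 FPKM in GB. GB was below all others, and PTGS1 fell in both comparisons (log2FC -0.57 ± 0.08 and -0.42 ± 0.08, limma adjusted p 6.9e-04 and 0.0046), the opposite direction to DRAM1. The other prostaglandin synthase, PTGS2, at 71.9 to 93.2 FPKM, and the receptivity genes HOXA10, at 112 to 214 FPKM, and HOXA11, at 26.7 to 47.4 FPKM, passed in no comparison. Their log2FC in GB vs. CON were -0.02 ± 0.07, -0.04 ± 0.19 and -0.28 ± 0.18, and in GB vs. GA 0.14 ± 0.07, -0.38 ± 0.19 and -0.08 ± 0.18 (limma, adjusted p 0.85, 0.89, 0.26, 0.18, 0.19 and 0.78). Over all alternatives the log2FC in GB vs. CON ran from -0.083 to 0.094 for PTGS2 and from -0.64 to 0.17 for HOXA10. For HOXA11 it ran from -0.999 to -0.14, and from -0.46 to -0.14 with single libraries left out. None of these values passed. The siRNA measurements were not analysed here, and DRAM1 was not silenced in any of these libraries.

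Across the 9 libraries, the 5 genes whose log2(FPKM + 0.5) was most like that of DRAM1 among 11875 genes with a mean of at least 1 FPKM were TM6SF2, ALPK1, B2M, GBP5 and SP100 (Pearson r 0.998, 0.998, 0.998, 0.997 and 0.997). The libraries fall into 3 of GB and 6 of the rest, so such r values largely restate that separation. Among the 6 CON and GA libraries, which form 2 groups, r with DRAM1 was 0.87, 0.92, 0.92, 0.84 and 0.74 in the same order. The 5 genes were chosen on all 9 libraries, which include these 6, so these r values are partly fixed by the choice. GBP5 reached a mean of 1 FPKM only through GB, and its r among the 6 rests on values of 0 to 0.83 FPKM. B2M, the light chain of MHC class I, was the most abundant of the 5, at 3015 to 3800 FPKM in CON and GA and at 12350 to 13273 FPKM in GB. GBP5, an interferon-induced GTPase, was at 0 to 0.83 FPKM in CON and GA and at 34.7 to 40.1 FPKM in GB. SP100, a nuclear body protein, was at 1.3 to 2.46 FPKM in CON and GA and at 28.8 to 33.3 FPKM in GB. TM6SF2 was at 3.08 to 4.36 and 23.7 to 26.9 FPKM and ALPK1, a kinase that senses bacterial sugars, at 1.84 to 2.17 and 3.96 to 4.22 FPKM in the same 2 sets of libraries. Among the members, r with DRAM1 ran from -0.97 for SQSTM1 to 0.93 for DRAM2, with -0.07 for MAP1LC3B.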

How the data were processed

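Total RNA of BEND was sequenced as poly(A) libraries, 3 each of CON, GA and GB. Per the submitters' processing notes and the methods, the authors trimmed reads with fastp 0.21.0, removed rRNA reads with Bowtie2 2.33, aligned to ARS-UCD1.2 with HISAT2 2.2.1, quantified with RSEM 1.3.3 and tested with DESeq2 1.34.0. The authors deposited FPKM per gene and library to 2 decimals. The table holds no read counts, and each library summed to 1395620 to 1442720 FPKM. Low values rest on few reads and are the least precise. Whether the counting used strand is not given in the sources used here.

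Values were used as log2(FPKM + 0.5) without rescaling. Genes averaging 0.5 FPKM or more were fitted with limma 3.58.1 (R 4.3.3), with a mean for each of the 3 groups over 9 libraries and a variance trend, and p-values were adjusted by Benjamini-Hochberg over all genes tested. A DEG had |log2FC| above 1 and adjusted p under 0.05, as in the study. The fit was tested on simulated data, and the outcome of that test is not given here. Figures were drawn in Python with matplotlib.

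The members and the gene lists were chosen with earlier results of these data known. Named were the members, each listed DEG, the gene with the largest and the smallest log2FC in GB vs. GA of each list, the study's 4 genes, ISG15, MX2 and the 5 genes most like DRAM1. Genes outside this rule are marked in the text, and some genes of the rule are not reported here. Alternatives were pseudocounts of 1 and 0.1, no filter or a filter at 1, TPM, median-of-ratios and quantile scaling, no variance trend, a separate fit per pair of groups, a block for replicate number, GC content of the reads, and each library left out.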

Additional observations from a re-analysis of the deposited data

How the results depend on the processing

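DRAM1 was a DEG under all 21 alternatives (log2FC 1.78 to 2.13 for GB vs. CON, 1.80 to 1.92 for GB vs. GA), as were DRAM2 (1.13 to 1.69 and 1.00 to 1.25), CALCOCO2 and SLC15A3. Where a filter on low values was used, SLC15A3 passed it only through GB. SQSTM1 fell in both under all 21. In GA vs. CON, 0 members passed under any alternative, and the sign of the DRAM1 log2FC there turned with median-of-ratios factors (-0.021), with quantile normalization (-0.025) and with GC content of the reads (-0.021), and ranged from -0.071 to 0.13 with single libraries left out. The count of members passing ranged from 7 to 7 (GB vs. CON) and 6 to 7 (GB vs. GA) when libraries were left out.

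The replicate numbers did not pair the libraries, since same-numbered libraries correlated at -0.03 to 0.08 in their deviations from the group means, beside -0.07 to 0.06 for other pairs, and were best matched in 8 of 18 cases. With the replicate block, 7 members passed in GB vs. CON and 7 for GB vs. GA, 5 and 4 genes of the lists were DEGs, and the DRAM1 log2FC of 1.89 and 1.85 had limma adjusted p of 9.7e-07 and 1.1e-06. The OPTN rise in GB vs. GA was the only call of a named gene lost under the block (adjusted p 0.051). With GC content, added after seeing the data to the replicate block, 3 members passed in GB vs. CON (DRAM1, DRAM2 and SQSTM1). Genes passing in GB vs. CON numbered 1472 with GC content alone and 514 with both, against 4212, and in GA vs. CON 0 with either, against 57. The median standard error of all genes in GB vs. CON was 0.16 and 0.20, against 0.091. In GB vs. GA, 4069 genes passed with GC content alone and 3674 with both, against 3651. The median standard error there was 0.083 and 0.080, against 0.091. A larger standard error can by itself take a call away, and its share in the losses in GB vs. CON was not tested. Calls in GB vs. CON lost with GC content alone and not given above were those of NPC1, TCIRG1, MAP1LC3A, PIK3C3, ATG16L1, OPTN and MCOLN1 (log2FC -0.43, 0.22, -0.41, 0.29, 0.29, 0.25 and -0.34, adjusted p 0.050, 0.20, 0.096, 0.28, 0.059, 0.20 and 0.086). With the replicate block added these and the calls of GB vs. CON lost with GC content in the results above were lost too, as were those of ATG5, PTGS1, WIPI1, NEU1, ATP6V1B2, ACP2, ULK2 and FUNDC1 (log2FC 0.50, -0.49, -0.28, -0.66, -0.26, 0.75, -0.86 and 0.65, adjusted p 0.084, 0.25, 0.33, 0.12, 0.26, 0.060, 0.074 and 0.19). The log2FC of ATG5, NEU1, ACP2 and ULK2 were larger there than without these terms. With both terms 5 genes of the lists were higher (3.21%) and 2 lower (1.28%), beside 2.56% and 1.53% of all genes. The cause was not tested.

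Under GC content alone the sign turned, to values that did not pass, for MAP1LC3B (-0.058), GABARAP (-0.0014), LAMP1 (0.042) and LAMP2 (-0.064) in GA vs. CON, and against CON in GB for MAP1LC3B (-0.16), ATG101 (0.28), LAMTOR4 (0.15), PTGS2 (0.094) and STX17 (-0.15). With the replicate block and GC content they turned for MAP1LC3B (-0.027), TFEB (-0.10), LAMP1 (0.092) and LAMP2 (-0.11) in GA vs. CON, and against CON in GB for MAP1LC3B (-0.13), ATG101 (0.39), LAMTOR4 (0.093), STX17 (-0.23), TOLLIP (0.044) and BNIP3L (0.19). With quantile normalization MAP1LC3B (-0.025) and WIPI2 (-0.038) turned in GB vs. CON. With libraries left out, values spanned 0 in GA vs. CON for TFEB (-0.051 to 0.19) and LAMP1 (-0.045 to 0.0054), in GB vs. CON for MAP1LC3B (-0.053 to 0.12), ATG101 (-0.16 to 0.069), HOXA10 (-0.26 to 0.17), PTGS2 (-0.054 to 0.024) and WIPI2 (-0.029 to 0.074), and in GB vs. GA for MAP1LC3B (-0.17 to 0.018) and HOXA11 (-0.26 to 0.059).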
